A study of Mus musculus with 10 samples.

Results

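The interstitial matrix and fibrosis genes are 38 genes, of the 15341 in the deposited count table. The list was chosen by name, with earlier results of these data known. They are 5 fibrillar collagens, 4 other interstitial collagens, 6 elastic fibre and microfibril genes, 3 crosslinking enzymes, 9 genes for fibronectin and the matricellular proteins, 4 proteoglycans, Mmp2 with 3 of its inhibitors, and 3 TGF-beta ligands. Whole-heart RNA of 10 male mice was sequenced, from 5 animals described as lacking sphingosine 1-phosphate in plasma (S1Pless) and 5 controls from the same litters. This lipid messenger travels in blood and is made by the sphingosine kinases, the products of Sphk1 and Sphk2. Both groups had the alleles Sphk1f/- and Sphk2f/-, 1 floxed copy over 1 null copy of each kinase gene, so the controls too could make the kinases from 1 copy only. The S1Pless animals were Mx1Cre+ and the controls Mx1Cre-. In Mx1-Cre mice the recombinase is driven by the promoter of Mx1, which interferon switches on in blood-forming cells and also in cells of other organs. The sources used here give neither the age of the animals nor any agent used to induce the Cre. S1Pless heart 5 had been singled out as unlike the others, and each class is therefore given with and without it.

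The interstitial matrix is the network between the heart's muscle cells. Fibroblasts secrete most of it as collagen precursors, which assemble into fibrils in the extracellular space and are then tied together by lysyl oxidases. Microfibrils, fibronectin and proteoglycans organise the fibrils and hold TGF-beta in latent form near the cells, and active TGF-beta is the best known inducer of the fibroblast's collagen genes. Matricellular proteins such as periostin and tenascin C are low in healthy heart muscle and are known as markers of injury and repair.

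Depth was 17204491 to 20202283 counts per control library and 16354071 to 20832566 counts per S1Pless library. A level is given as CPM, counts scaled to a common library size, and 1 count was worth 0.0451 to 0.0658 CPM. Sphk1 had only 8 to 27 counts in a library, at 0.852 to 1.78 CPM in controls and 0.400 to 0.987 CPM in S1Pless hearts. Sphk2 lay at 18 to 23.6 CPM in controls and 13.9 to 18.7 CPM in S1Pless hearts. Neither kinase passed the test (log2 fold changes -0.74 ± 0.28, adjusted p = 0.168, and -0.27 ± 0.11, adjusted p = 0.180, edgeR). The labels say nothing of which exons were floxed, and a count over the whole gene does not separate recombined from intact transcripts. Genes of the cardiomyocyte (Myh6, Tnnt2, Ttn and others) made up the tissue's main signal, at a summed 44590 to 52025 CPM in controls and 38238 to 46947 CPM in S1Pless hearts, with the lowest sum in S1Pless heart 5. In bulk hearts, more cells of a type and more RNA per cell cannot be told apart.

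RefSeq's table of promoters (GRCm38.p6) held a window for 23 of the 38 genes. The 250 bases before the start are shown for 4 of them that the results turn on: Col3a1, with the largest difference among the fibrillar collagens, Col6a2, which passed the test, and Tnc and Timp1, the tested genes in which S1Pless heart 5 stood farthest above its group. Capitals mark a match, on either strand, to any of 4 motifs: the TATA box written as TATAAA, the CCAAT box written as CCAAT, the GC box written as GGGCGG and the AP-1 motif written as TGANTCA. Each match is printed as the sense strand of the gene has it. The windows are chr1:45311288-45311537 on the plus strand for Col3a1, chr10:76623631-76623880 on the minus strand for Col6a2, chr4:64047016-64047265 on the minus strand for Tnc and chrX:20869916-20870165 on the plus strand for Timp1.
Col3a1: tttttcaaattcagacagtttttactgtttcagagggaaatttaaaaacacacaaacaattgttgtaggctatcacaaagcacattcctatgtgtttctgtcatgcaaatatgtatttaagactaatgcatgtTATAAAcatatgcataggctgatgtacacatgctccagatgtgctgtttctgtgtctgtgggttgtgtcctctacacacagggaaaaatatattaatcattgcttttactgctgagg
Col6a2: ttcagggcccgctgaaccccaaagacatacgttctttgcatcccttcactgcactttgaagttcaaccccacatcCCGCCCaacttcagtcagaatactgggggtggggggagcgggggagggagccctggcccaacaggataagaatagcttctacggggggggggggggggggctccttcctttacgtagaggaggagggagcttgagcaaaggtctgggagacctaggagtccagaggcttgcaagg
Tnc: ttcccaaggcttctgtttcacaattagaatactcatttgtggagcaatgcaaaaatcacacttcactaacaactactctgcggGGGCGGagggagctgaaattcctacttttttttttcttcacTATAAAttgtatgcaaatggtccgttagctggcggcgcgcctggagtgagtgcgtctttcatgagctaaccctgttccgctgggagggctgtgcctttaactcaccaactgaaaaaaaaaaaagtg
Timp1: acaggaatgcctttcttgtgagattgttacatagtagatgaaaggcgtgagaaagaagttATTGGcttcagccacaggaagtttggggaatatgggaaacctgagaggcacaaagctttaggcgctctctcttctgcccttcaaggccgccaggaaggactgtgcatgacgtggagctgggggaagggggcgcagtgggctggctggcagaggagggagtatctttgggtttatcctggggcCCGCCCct

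The 4 windows have no motif in common. Col3a1 and Tnc hold TATAAA, whose first base lies 117 and 126 bases before the start. Col6a2, Tnc and Timp1 hold GGGCGG, 175, 167 and 8 bases before it, and Timp1 also holds CCAAT at 190 bases. Over the 23 windows GGGCGG was found in 14 (60.9%) against 32.7% of all 32851 windows in the table, and TATAAA in 4 (17.4%, in Col3a1, Postn, Tnc and Tgfb2) against 12.4%. CCAAT was found in 5 (21.7%) against 33.8%, and TGANTCA in Col6a1 alone (4.35%) against 6.75%. These are matches of letters and not shown to be bound sites.

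Matrix transcripts lay higher in the S1Pless hearts as a rule, by a modest amount in 4 hearts and by much more in S1Pless heart 5. Of the 38 genes 37 had enough counts to be tested, and 3 of these (8.11%) were higher in S1Pless hearts at an adjusted p below 0.05: Col6a1 and Col6a2, chains of collagen VI, and Fbn1, the main protein of microfibrils. None was lower. Among all 12992 genes tested, 3.40% were higher at that threshold and 0.316% lower. The median log2 fold change was 0.35 over the 37 matrix genes, with a range from -0.12 to 1.45, and -0.01 over all genes tested. It lay above 0 in 33 of the 37, against 47.4% of all genes, and the 4 below 0 (Fbln1, Comp, Thbs1 and Thbs4) lay above 0 when libraries were scaled by their totals alone, which moves the median of all genes to 0.12. At an unadjusted p below 0.05, 17 of the 37 were higher (45.9%) and 0 lower, where 13.0% of all genes were higher and 6.82% lower. DESeq2, run as an alternative, called 11 of the 37 higher where it called 5.88% of all genes higher. Limma-voom called 5 of the 37 higher, beside 529 of all 12992 genes.

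Without S1Pless heart 5 no matrix gene passed the test, where 1.69% of 13046 genes tested were higher. The median of the matrix genes was then 0.19, with a range from -0.52 to 0.59, beside -0.02 over all genes. Of the 37, 30 lay above 0 and 12 (32.4%) were higher at an unadjusted p below 0.05, beside 45.7% and 9.91% of all genes. Leaving out controls 3, 4 or 5 also left 0 calls among them. Of all genes 118, 122 and 223 were then higher, beside 442 with all hearts. Leaving out controls 1 or 2 or S1Pless heart 4 left 1 call (504, 261 and 459 of all genes higher). Leaving out S1Pless heart 2 or 3 left 2 (493 and 428), and leaving out S1Pless heart 1 gave 4 (269). The test therefore called few of these genes whichever heart was absent, whereas their median moved mainly with S1Pless heart 5: it was 0.30 to 0.42 without any other heart.

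**Figure D1:**
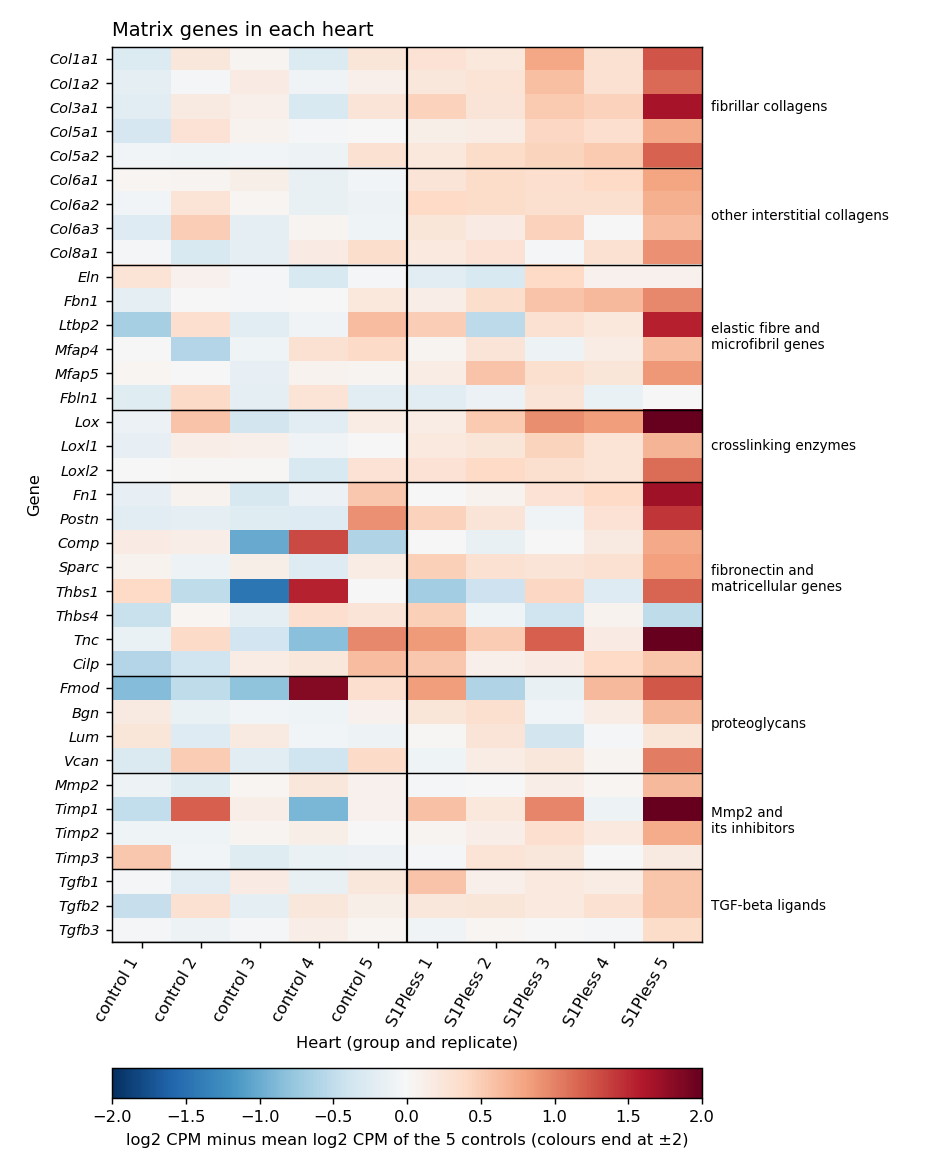
Level of each of the 37 tested matrix genes (rows, in classes) in each heart (columns), as the difference between its log2 CPM and the mean log2 CPM of the 5 controls (colour scale, ending at ±2). The column of S1Pless heart 5 is red in most rows, with a median of 0.80 over the genes, while S1Pless hearts 1 to 4 have medians of 0.21, 0.23, 0.31 and 0.24 and the controls medians of -0.11 to 0.12.

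In each heart the genes' median distance from the control mean, on the log2 scale, was -0.11, 0.02, -0.05, -0.07 and 0.12 in controls 1 to 5 and 0.21, 0.23, 0.31, 0.24 and 0.80 in S1Pless hearts 1 to 5. The summed level of the 38 genes was 2074 to 2339 CPM in controls, 2516 to 2644 CPM in S1Pless hearts 1 to 4 and 3883 CPM in S1Pless heart 5. In both measures the groups were thus separate, with S1Pless heart 5 farther out than the rest of its group. For single genes this was the exception: the groups did not overlap in 6 of 37 (16.2%), namely Col1a2, Col6a1, Col6a2, Mfap5, Loxl1 and Sparc, with S1Pless higher in each, beside 4.53% of all genes tested, and in 0 lay every S1Pless heart below every control, beside 1.82%. In the same 6 genes S1Pless hearts 1 to 4 alone lay above all controls, beside 4.76% of all genes. S1Pless heart 5 was the highest of the 10 hearts in 27 of 37 (73.0%) beside 16.1% of all genes, and stood apart from the other S1Pless hearts by Dixon's ratio in 16 of 37 (43.2%) beside 2.17% of all genes.

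The fibrillar collagens, which form the load-bearing fibrils, had the highest class median, at a log2 fold change of 0.58 (0.37 without S1Pless heart 5). None of the 5 passed the test, and all 5 were higher at an unadjusted p below 0.05, beside 13.0% of all genes. Col3a1 encodes the chain of collagen III, the finer and more extensible fibril. Its level was 132, 175, 166, 126 and 185 CPM in controls 1 to 5 and 214, 185, 222, 213 and 485 CPM in S1Pless hearts 1 to 5. S1Pless heart 5 had more than any other heart by a wide margin, and S1Pless heart 2 was level with the highest control. The log2 fold change was 0.75 ± 0.24 (SE, adjusted p = 0.0966, edgeR), and 0.41 ± 0.13 (adjusted p = 0.152) without S1Pless heart 5.

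Collagen I, the stiff and most abundant fibril of the heart, is built from the chains of Col1a1 and Col1a2. Col1a1 was measured at 61.8, 87.7, 77.8, 61.8 and 88.7 CPM in controls and 91.6, 86.8, 128, 92.4 and 179 CPM in S1Pless hearts, where S1Pless heart 2 lay within the control range. Its log2 fold change was 0.61 ± 0.19 (adjusted p = 0.0976), and 0.39 ± 0.15 without S1Pless heart 5. For Col1a2 the controls had 83.5, 93.9, 107, 90.6 and 102 CPM and the S1Pless hearts 111, 115, 144, 118 and 208 CPM. Here the groups did not overlap, although S1Pless heart 1 was close to control 3, and the log2 fold change of 0.55 ± 0.16 did not pass (adjusted p = 0.0761, and 0.35 on the log2 scale without S1Pless heart 5). Both collagen I chains were called by DESeq2 (adjusted p = 0.0372 and 0.0248), as was Col3a1 (adjusted p = 0.0272).

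Collagen V is a minor fibril component that sets fibril diameter. Its chain Col5a2 had 30.1 to 31.0 CPM in controls 1 to 4, 39.9 CPM in control 5, 37.4 to 46.2 CPM in S1Pless hearts 1 to 4 and 73.5 CPM in S1Pless heart 5. Only control 5 reached into the S1Pless range. Its log2 fold change was 0.58 ± 0.16 (adjusted p = 0.0673) and 0.37 ± 0.11 without S1Pless heart 5 (adjusted p = 0.0990). For Col5a1 it was smaller, 0.35 ± 0.13 (adjusted p = 0.161) and 0.23 without that heart, with 36.8 to 56.8 CPM in controls and 50.3 to 78.2 CPM in S1Pless hearts.

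Collagen VI forms beaded filaments around cells, from the chains of Col6a1, Col6a2 and Col6a3. Col6a1 rose 1.36-fold in S1Pless hearts and Col6a2 1.34-fold. The level of Col6a1 was 80.1, 80.4, 84.0, 70.1 and 74.9 CPM in controls and 92.6, 99.9, 97.7, 103 and 135 CPM in S1Pless hearts, with no overlap. That is 77.9 ± 5.4 against 106 ± 17 CPM (SD, n = 5 each), or a log2 fold change of 0.44 ± 0.11 (SE, adjusted p = 0.0362, edgeR). Col6a2 was at 75.1, 94.5, 80.1, 70.4 and 73.3 CPM in controls and 103, 101, 97.4, 98.1 and 128 CPM in S1Pless hearts. Its S1Pless hearts 1 to 4 lay in a narrow band just above control 2, and the log2 fold change was 0.43 ± 0.11 (adjusted p = 0.0394).

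The calls for collagen VI sat close to the threshold. Leaving out S1Pless heart 5 kept the log2 fold changes at 0.33 ± 0.09 for Col6a1 and 0.34 ± 0.10 for Col6a2 and ended both calls (adjusted p = 0.0805 and 0.110). Hearts carry title numbers of 2 series, whose meaning the labels do not give, and a term for the series left values of 0.40 and 0.41 and also ended both (adjusted p = 0.0571 and 0.0601), while Col5a2 passed in that fit (0.47, adjusted p = 0.0478), which left 2 calls among the 37 genes. For Col6a1 the call also ended without control 2, 3, 4 or 5 or S1Pless heart 4 (adjusted p = 0.0637, 0.0669, 0.105, 0.0832 and 0.0514), and for Col6a2 without control 1, 3, 4 or 5 or S1Pless heart 1 or 2 (adjusted p = 0.0581, 0.0846, 0.115, 0.0918, 0.0649 and 0.0550). The third chain, Col6a3, had 34.2 to 57.3 CPM in controls and 41.1 to 63.0 CPM in S1Pless hearts, which overlapped widely (0.29 ± 0.15, adjusted p = 0.303, and 0.19 without S1Pless heart 5). Col8a1, a short-chain collagen of vessel walls, had 23.2 to 36.4 CPM in controls, 28.2 to 35.4 CPM in S1Pless hearts 1 to 4 and 53.7 CPM in S1Pless heart 5 (0.35 ± 0.17, adjusted p = 0.255, and 0.17 without that heart).

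**Figure D2:**
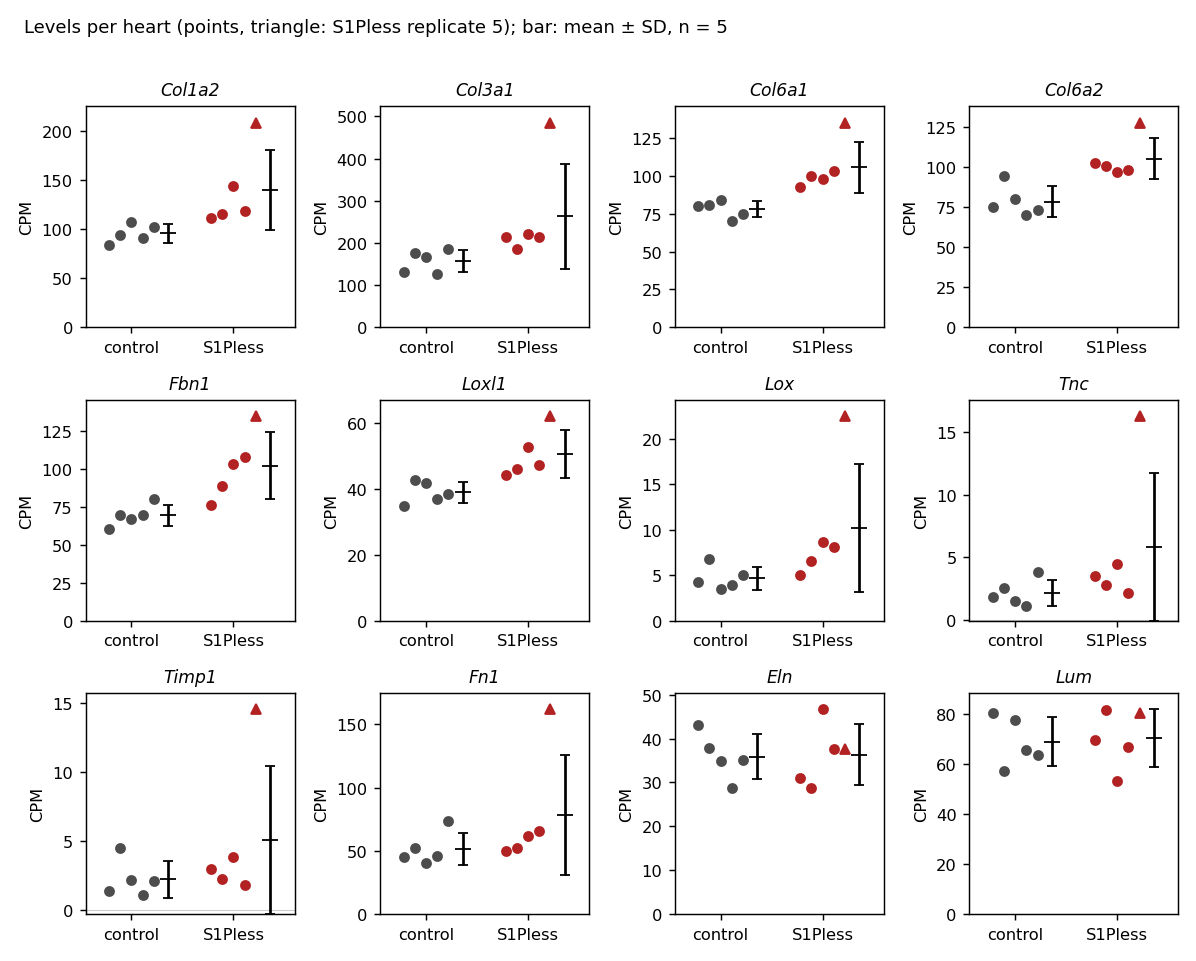
CPM (y axes, each from 0 or just below it) of 12 matrix genes in 5 control (grey) and 5 S1Pless (red) hearts, with a triangle for S1Pless heart 5 and bars for the mean ± SD of 5 hearts. In Lox, Tnc, Timp1 and Fn1 the triangle stands far above all other hearts, in Col6a1, Col6a2 and Loxl1 the red circles too lie above all controls, and in Eln and Lum the groups overlap.

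In the elastic fibre and microfibril class the median was 0.32 with all hearts and 0.07 without S1Pless heart 5. Fbn1 encodes fibrillin 1, the backbone of microfibrils and a store for latent TGF-beta, and it rose 1.47-fold. Its level was 60.4, 69.6, 67.3, 69.6 and 80.3 CPM in controls and 76.2, 88.7, 103, 108 and 135 CPM in S1Pless hearts. S1Pless heart 1 lay below control 5, and the other S1Pless hearts were above all controls. On the log2 scale the rise was 0.56 ± 0.14 (adjusted p = 0.0373, edgeR), and 0.43 ± 0.12 without S1Pless heart 5 (adjusted p = 0.0935). The call also ended without any one control (adjusted p = 0.0607, 0.0693, 0.0937, 0.0925 and 0.0516 for controls 1 to 5) and without S1Pless heart 3 or 4 (adjusted p = 0.0603 and 0.0639). In the GENCODE M21 annotation 20.1% of the exon bases of Fbn1 lie opposite exons of Gm9913, and the sources used here do not give the strand setting of the counting.

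Mfap5, which encodes the microfibril-associated glycoprotein 2 (MAGP2), had 16.9, 16.4, 14.7, 17.2 and 17.1 CPM in controls and 18.3, 24.5, 20.5, 19.4 and 30.0 CPM in S1Pless hearts. The controls were tight and the groups did not overlap, yet the log2 fold change of 0.45 ± 0.13 did not pass (adjusted p = 0.0650). Eln, the gene of elastin itself, showed no such pattern: controls had 28.7 to 43.1 CPM and S1Pless hearts 28.8 to 46.7 CPM, with a log2 fold change of 0.02 ± 0.13 (adjusted p = 0.957). Fbln1, the gene of an elastic fibre and basement membrane linker, had 66.8 to 103 CPM in controls and 68.0 to 93.8 CPM in S1Pless hearts (-0.06 ± 0.14). Ltbp2, a microfibril-bound relative of the latent TGF-beta binding proteins, had 3.62 to 8.77 CPM in controls, 4.00 to 8.08 CPM in S1Pless hearts 1 to 4 and 16.8 CPM in S1Pless heart 5. Its log2 fold change fell from 0.51 ± 0.33 to 0.09 ± 0.25 when that heart was left out. Mfap4 had a log2 fold change of 0.18 ± 0.18 (adjusted p = 0.613), and 0.05 without it.

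Lysyl oxidases make the covalent crosslinks of collagen and elastin, and all 3 genes of this class were higher at an unadjusted p below 0.05, beside 13.0% of all genes, without passing the test (class median 0.50, and 0.29 without S1Pless heart 5). Lox, the founding member, was at 4.21, 6.72, 3.51, 3.87 and 5.03 CPM in controls and 5.01, 6.55, 8.65, 8.11 and 22.5 CPM in S1Pless hearts. S1Pless hearts 1 and 2 lay inside the control range, hearts 3 and 4 above it, and heart 5 had 3.06 times the median of the other 4. The log2 fold change was 1.12 ± 0.37 (adjusted p = 0.117), and 0.59 ± 0.21 without that heart (adjusted p = 0.195). Loxl1, which acts mainly on elastin, had 34.8, 42.6, 41.9, 37.1 and 38.5 CPM in controls and 44.4, 46.0, 52.9, 47.2 and 62.2 CPM in S1Pless hearts. The groups did not overlap, with S1Pless heart 5 the highest and heart 1 close to control 2 (0.37 ± 0.10, adjusted p = 0.0615, and 0.28 without S1Pless heart 5). Loxl2 had 9.42 to 14.2 CPM in controls, 14.1 to 15.3 CPM in S1Pless hearts 1 to 4 and 25.2 CPM in S1Pless heart 5 (0.50 ± 0.17, adjusted p = 0.111, and 0.29 without that heart).

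The genes of fibronectin and the matricellular proteins, which bind cells and growth factors more than they bear load, had a class median of 0.37 (0.15 without S1Pless heart 5), and none of the 8 tested passed, with 2 higher at an unadjusted p below 0.05 (beside 13.0% of all genes). Tnc, the tenascin C gene, had the largest log2 fold change of the 37 tested genes, 1.45 ± 0.56 (adjusted p = 0.183). Most of it came from 1 heart: controls had 1.78, 2.53, 1.49, 1.09 and 3.80 CPM and S1Pless hearts 3.52, 2.75, 4.47, 2.17 and 16.3 CPM. Without S1Pless heart 5 the value was 0.58 ± 0.32 (adjusted p = 0.417), and S1Pless hearts 1, 2 and 4 lay within the control range.

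Fn1, the gene of fibronectin, on which collagen fibrils are first laid down, was at 44.8, 52.4, 40.1, 46.1 and 73.2 CPM in controls and 50.1, 52.5, 61.3, 66.0 and 162 CPM in S1Pless hearts. S1Pless hearts 1 to 4 stayed below control 5, and the log2 fold change went from 0.61 ± 0.31 to 0.16 ± 0.16 without S1Pless heart 5. Postn, the periostin gene that marks activated fibroblasts, had 36.8, 38, 36.4, 36.2 and 81.1 CPM in controls and 59.1, 51.5, 41.1, 52.5 and 116 CPM in S1Pless hearts. Control 5 and S1Pless heart 5 each stood apart from their groups (0.49 ± 0.31, adjusted p = 0.411, and 0.15 ± 0.23 without S1Pless heart 5). Cthrc1, another gene of activated fibroblasts, had too few counts to be tested, 0 to 18 in a library. Control 1 had a count of 0, which allows up to 3 counts or 0.197 CPM by counting error alone, while S1Pless heart 5 had 0.853 CPM and the other 8 hearts 0.101 to 0.615 CPM.

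Sparc encodes a collagen-binding protein that steers fibril assembly, and it was the most abundant of the 38 transcripts per length, at 74.5 CPM per kilobase of exon in controls. Its level was 296, 262, 306, 236 and 311 CPM in controls and 392, 345, 337, 348 and 497 CPM in S1Pless hearts. The groups did not overlap. The difference was 0.44 ± 0.13 on the log2 scale (adjusted p = 0.0695), with 0.32 ± 0.11 without S1Pless heart 5. Thbs1, which encodes an activator of latent TGF-beta, ranged from 6.12 to 48.3 CPM among the controls alone and from 10.2 to 37.3 CPM in S1Pless hearts (-0.12 ± 0.54, and -0.52 without S1Pless heart 5). Thbs4, another thrombospondin gene, was lowest of all in S1Pless heart 5, at 4.03 CPM, beside 4.21 to 7.94 CPM in the other 9 hearts (-0.07 ± 0.20, and 0.02 without it). Both values turned positive with library totals (0.02 and 0.06). Comp had 1.81 to 9.15 CPM in controls and 3.30 to 6.21 CPM in S1Pless hearts (-0.03 ± 0.36, and -0.23 without S1Pless heart 5). Cilp, a gene of fibroblasts and cartilage, had 12.2 to 28.0 CPM in controls and 19.6 to 26.7 CPM in S1Pless hearts (0.29 ± 0.19, adjusted p = 0.420).

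**Figure D3:**
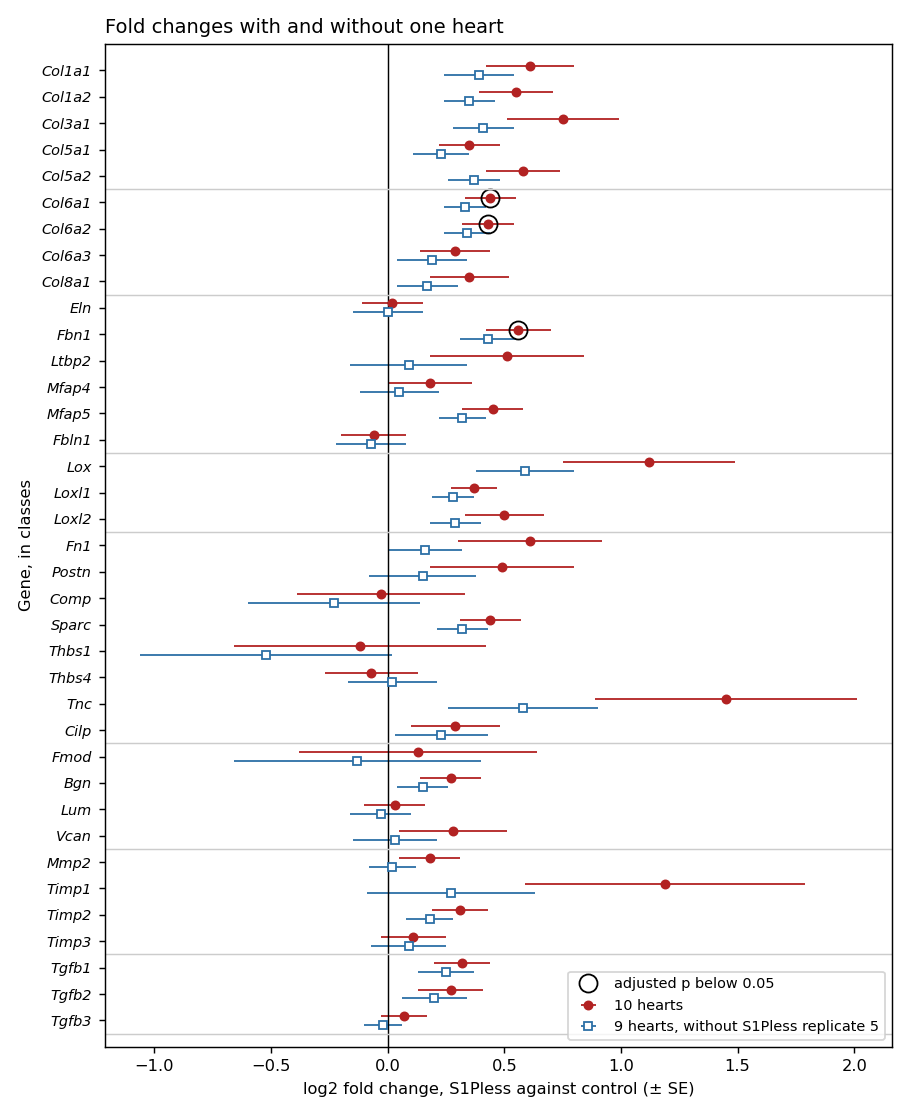
Log2 fold change of S1Pless against control hearts (x axis, ± SE) for the 37 tested matrix genes (y axis, in classes), from the fit of all 10 hearts (red circles) and of the 9 hearts without S1Pless heart 5 (blue squares), with a ring where the adjusted p was below 0.05. Only Col6a1, Col6a2 and Fbn1 are ringed, no gene is called in the 9-heart fit, and Tnc, Timp1 and Lox have the largest shifts between the fits.

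The proteoglycans, small core proteins with sugar chains that space the fibrils and the large hyaluronan-binding versican, had the lowest class median, 0.20 (0.00 without S1Pless heart 5). Bgn, which encodes biglycan, had 281, 227, 239, 233 and 264 CPM in controls and 292, 308, 238, 275 and 388 CPM in S1Pless hearts. S1Pless heart 3 lay among the controls and heart 4 just below the highest of them (0.27 ± 0.13, adjusted p = 0.248, and 0.15 without S1Pless heart 5). Lum, the lumican gene, was at 57.1 to 80.5 CPM in controls and 53.1 to 81.6 CPM in S1Pless hearts, with a log2 fold change of 0.03 ± 0.13, and -0.03 without S1Pless heart 5. Vcan, the versican gene, had 9.75 to 18.2 CPM in controls, 12 to 14.9 CPM in S1Pless hearts 1 to 4 and 25.9 CPM in S1Pless heart 5 (0.28 ± 0.23, and 0.03 without that heart). Fmod, the fibromodulin gene, was barely expressed and was highest in control 4, at 3.00 CPM (0.13 ± 0.51, and -0.13 without S1Pless heart 5).

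Mmp2 encodes a gelatinase that degrades collagen, and the tissue inhibitors encoded by Timp1, Timp2 and Timp3 block it and related proteases. No gene of this class passed (median 0.24, and 0.13 without S1Pless heart 5). Timp1 is known to be induced in injured tissue, and its level was 1.38, 4.46, 2.13, 1.03 and 2.07 CPM in controls and 2.93, 2.25, 3.83, 1.81 and 14.6 CPM in S1Pless hearts. S1Pless hearts 1 to 4 lay within the control range and heart 5 at 5.63 times their median. With that heart the log2 fold change was 1.19 ± 0.60 (adjusted p = 0.298), and 0.27 ± 0.36 (adjusted p = 0.760) without it. Timp2 had 88.9 to 103 CPM in controls and 98.7 to 158 CPM in S1Pless hearts (0.31 ± 0.12, adjusted p = 0.172, and 0.18 without S1Pless heart 5). Mmp2 itself was at 53.5 to 73.9 CPM in controls, 62.4 to 69.9 CPM in S1Pless hearts 1 to 4 and 99.2 CPM in S1Pless heart 5 (0.18 ± 0.13, and 0.02 without that heart). Timp3 had its highest value in a control, 438 CPM in control 1, and 254 to 365 CPM in the other 9 hearts (0.11 ± 0.14), and 21.3% of its exon bases lie opposite exons of Syn3.

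TGF-beta ligands are secreted in a latent complex and act on fibroblasts through a pair of kinase receptors and the Smad proteins. The 3 ligand genes had a median log2 fold change of 0.27 (0.20 without S1Pless heart 5), and none passed, with 1 of 3 higher at an unadjusted p below 0.05, beside 13.0% of all genes. Tgfb1 had 28.6, 25.4, 33.0, 26.4 and 34.5 CPM in controls and 43.6, 31.5, 33.5, 32.5 and 43.1 CPM in S1Pless hearts. S1Pless hearts 1 and 5 lay above all controls and the other 3 within their range (0.32 ± 0.12, adjusted p = 0.167). Tgfb2 had 6.97 to 11.9 CPM in controls and 11.0 to 14.1 CPM in S1Pless hearts (0.27 ± 0.14, adjusted p = 0.297), and Tgfb3 17.4 to 20.6 CPM in controls and 17.9 to 24.3 CPM in S1Pless hearts (0.07 ± 0.10, adjusted p = 0.728, and -0.02 without S1Pless heart 5).

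Levels per kilobase of exon in controls ran over more than 2 orders of magnitude between the 38 genes. After Sparc came Bgn at 40.8, Timp3 at 37.7, Lum at 28.2 and Timp2 at 24.4 CPM per kilobase. The collagen chains lay lower, with Col6a1 at 17.8, Col3a1 at 16 and Col1a1 at 11.5 CPM per kilobase. At the bottom were Fmod at 0.338, Tnc at 0.275 and Cthrc1 at 0.172 CPM per kilobase. The genes in which S1Pless heart 5 exceeded the median of S1Pless hearts 1 to 4 by the largest factors were Cthrc1 (6.79), Timp1 (5.63), Tnc (5.18) and Lox (3.06), all in the lower part of this order. Next came Fn1 and Thbs1 (2.84 each), Ltbp2 (2.45), Col3a1 (2.27) and Postn (2.23), and for Thbs4 the factor was 0.707.

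**Figure D4:**
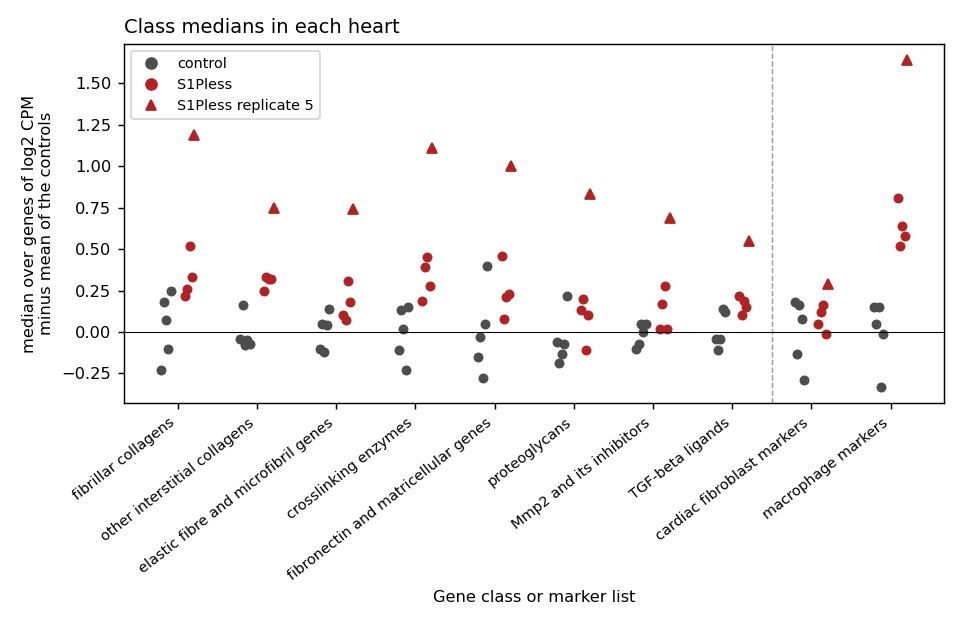
Median over the tested genes of each matrix class, and of the fibroblast and macrophage marker lists (right of the dashed line), of log2 CPM minus the mean log2 CPM of the controls (y axis) in each heart (controls grey, S1Pless red, triangle for S1Pless heart 5). The triangle is highest in all 8 classes, at 1.19 for the fibrillar collagens, while the fibroblast markers reach 0.29 and the macrophage markers 1.64 in that heart.

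Markers of cell types were measured beside the matrix genes. The 11 fibroblast markers (Pdgfra, Tcf21, Dpep1 and others) had a median log2 fold change of 0.09, and 0.11 without S1Pless heart 5. Dpep1 alone passed (0.55 ± 0.14, adjusted p = 0.0454), which is 9.09% of the list beside 3.40% of all genes. Its call held in 2 of the 10 fits that left out 1 heart and ended with RLE factors (adjusted p = 0.0542), and its log2 fold change was 0.50 without S1Pless heart 5. The summed level of the list was 1681 to 2563 CPM in controls and 2213 to 2430 CPM in S1Pless hearts, with 2430 CPM in S1Pless heart 5. By the median over the markers, on the log2 scale, S1Pless heart 5 lay at 0.29 and above all other hearts, which had -0.29 to 0.18 in controls and -0.01 to 0.16 in S1Pless hearts 1 to 4. That heart was the highest of 10 in 4 of the 11 markers (36.4%, beside 16.1% of all genes): Ddr2 at 66.8 CPM against 38 to 49.8 CPM in controls, Cd248 at 17.1 against 7.96 to 9.78, Scara5 at 41.1 against 24 to 38 and Dpt at 102 against 56.4 to 93.7. Dpep1, at 124 CPM in S1Pless heart 5, also lay above its control range of 56.5 to 97.4 CPM. The other markers lay within their control ranges in that heart. Tcf21 was at 6.78 CPM against 6.09 to 7.83 in controls, Lamb1 at 109 against 101 to 122 and Gsn at 1191 against 874 to 1483. Pi16 was at 52.6 CPM against 40.1 to 62.3 and Dcn at 662 against 426 to 667. Pdgfra, a receptor that defines cardiac fibroblasts, was at 40.6 to 57.5 CPM in controls and 57.0 CPM in S1Pless heart 5. The part of fibroblast number in the matrix values was not tested.

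Macrophage markers also lay higher in the S1Pless hearts, most of all in S1Pless heart 5. Of 12, 7 were higher (58.3%, beside 3.40% of all genes) with all hearts and 7 without S1Pless heart 5, with a median of 0.87 and 0.59. Ccr2, a chemokine receptor of monocytes that enter tissue, rose 3.12-fold (1.64 ± 0.27 on the log2 scale, adjusted p = 0.0119), and Aif1 and Csf1r rose 2.76-fold and 1.84-fold (adjusted p = 0.0177 and 0.0255). The summed level was 207 to 277 CPM in controls, 339 to 421 CPM in S1Pless hearts 1 to 4 and 766 CPM in S1Pless heart 5. By median log2 distance from the control mean, S1Pless hearts 1 to 4 lay at 0.81, 0.52, 0.64 and 0.58 for the macrophage markers. For the matrix genes they lay at 0.21, 0.23, 0.31 and 0.24. The matrix values are too close together, beside an SD between hearts of 0.19, for an order to be read from them. Csf1r lost its call without control 2, 3, 4 or 5 (adjusted p = 0.0537, 0.0551, 0.0700 and 0.0634). The part of macrophages in the matrix values was not tested.

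Of the epicardial markers only Wt1 had enough counts, and it rose 1.52-fold (0.60 on the log2 scale, adjusted p = 0.0241). Its call held in 6 of the 10 fits that left out 1 heart, and the log2 fold change was 0.55 without S1Pless heart 5 (adjusted p = 0.0633), while Upk3b was at 2.32 CPM in S1Pless heart 5 and at most 0.605 CPM elsewhere. The summed epicardial level was 6.81 to 9.60 CPM in controls and 9.79 to 16.4 CPM in S1Pless hearts, highest in S1Pless heart 5. Most of this sum was Wt1 itself, at 5.94 to 8.98 CPM in controls and 9.70 to 12.9 CPM in S1Pless hearts. Among 7 endothelial markers only Erg passed (0.38 ± 0.09, adjusted p = 0.0332), which is 14.3% of the list beside 3.40% of all genes. The list median was 0.22, with 5 of the 7 above 0. Kdr (-0.23 ± 0.11) and Emcn (-0.12 ± 0.16) lay below 0. The call for Erg held in 3 of the 10 fits that left out 1 heart, and its log2 fold change was 0.37 without S1Pless heart 5. No marker passed among 6 of smooth muscle (median -0.21), 6 of pericytes (0.06), 7 of cardiomyocytes (-0.16), 5 of valve and tendon-like cells (-0.15) or 5 of the atrium (0.29), and those of fat cells summed to at most 1.24 CPM. Myl7 and Sln, which define atrial muscle, were at 9.69 and 4.29 CPM in S1Pless heart 3 and at most 0.142 and 0.168 CPM in the others. The part of these cell types in the matrix values was not tested.

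Of other genes that build and turn over the matrix 5 passed, all higher, in 5 lists. They made up 0 to 7.14% of each list beside 3.40% of all genes, so the share called was near the background. Of 36 further interstitial matrix genes tested, of 43 listed, 2 were higher (5.56%) and 0 lower, with a median of 0.25 (0.19 without S1Pless heart 5). Tnxb encodes tenascin X, which links collagen fibrils, and had 103, 109, 107, 103 and 98.0 CPM in controls and 127, 160, 159, 145 and 154 CPM in S1Pless hearts. The groups were well apart and S1Pless heart 5 lay inside its group. The log2 fold change was 0.52 ± 0.09 (adjusted p = 0.0116, edgeR), and 0.50 ± 0.10 without S1Pless heart 5 (adjusted p = 0.0268). Ccn5, the gene of a matricellular protein that lacks the C-terminal domain of its relative Ccn2, had 8.75, 6.67, 11.7, 13.4 and 11.6 CPM in controls and 20.7, 17.2, 19, 19.7 and 30.6 CPM in S1Pless hearts. It rose 2.06-fold with all hearts and 1.83-fold without S1Pless heart 5 (adjusted p = 0.0148 and 0.0226), and every S1Pless heart exceeded every control.

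Among 14 genes that respond to TGF-beta, 1 was higher (7.14%) and 0 lower, with a median of 0.12 (0.05 without S1Pless heart 5). This was Meox1, a homeobox gene known as a regulator of activated fibroblasts. Its level was 14.9, 17.3, 13.3, 10.0 and 15.4 CPM in controls and 32.7, 23.1, 25.8, 20.4 and 31.7 CPM in S1Pless hearts, with S1Pless heart 1 and not heart 5 the highest. The log2 fold change was 0.92 ± 0.16 (adjusted p = 0.0116) and 0.84 ± 0.16 without S1Pless heart 5 (adjusted p = 0.0226). Unlike the 3 calls among the 38 matrix genes, Tnxb, Ccn5 and Meox1 kept their calls in all 10 fits that left out 1 heart.

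**Figure D5:**
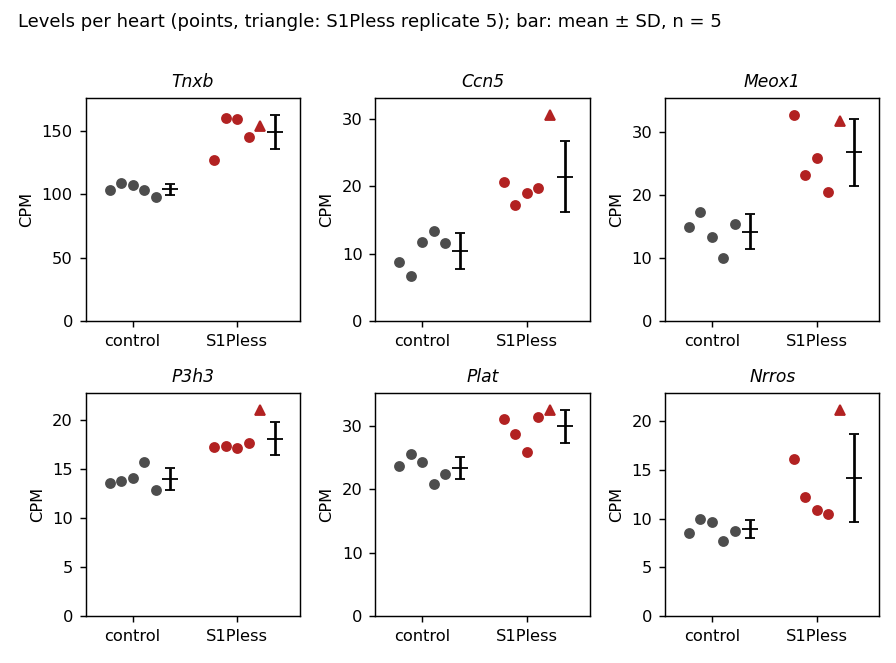
CPM (y axes from 0) of 6 further matrix and TGF-beta pathway genes in 5 control (grey) and 5 S1Pless (red) hearts, with a triangle for S1Pless heart 5 and bars for the mean ± SD of 5 hearts. In all 6 every S1Pless heart lies above every control, and in Tnxb and Meox1 the triangle lies inside the S1Pless group. The 6 were named for their small p-values in these data. Every S1Pless heart lay above every control in 4.17% to 8.33% of the tested genes of each of the 5 lists, beside 4.53% of all genes.

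Of 20 genes that activate or receive TGF-beta, none passed (median 0.05, and -0.01 without S1Pless heart 5). At an unadjusted p below 0.05, 4 of the 20 were higher and 1 lower, beside 13.0% and 6.82% of all genes. The nearest were Nrros, which holds latent TGF-beta on macrophages and microglia, at 7.68 to 9.94 CPM in controls and 10.5 to 21.2 CPM in S1Pless hearts (0.67 ± 0.18, adjusted p = 0.0542), and the receptor gene Tgfbr2, at 66.6 to 81.1 CPM and 77.6 to 115 CPM (0.28 ± 0.11, adjusted p = 0.183, and 0.16 without S1Pless heart 5). Of 24 genes that fold and process collagen, 1 was higher (4.17%) and 0 lower, with a median of 0.04 (0.02 without S1Pless heart 5). It was P3h3, which encodes a prolyl 3-hydroxylase, at 12.8 to 15.7 CPM in controls, 17.1 to 17.6 CPM in S1Pless hearts 1 to 4 and 21 CPM in S1Pless heart 5 (0.37 ± 0.09, adjusted p = 0.0362). The median of this list stood near that of all genes, though single genes ranged from -0.31 to 0.96. At an unadjusted p below 0.05, 5 of the 24 were higher (20.8%) and 2 lower, beside 13.0% and 6.82% of all genes. The fibrillar collagens had a median of 0.58, and of 0.37 without S1Pless heart 5. Serpinh1, the collagen chaperone HSP47, named here after its values were seen, was at 149 to 222 CPM in controls and 154 to 196 CPM in S1Pless hearts (-0.04 ± 0.12).

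Of 24 further matrix proteases and inhibitors, 1 was higher (4.17%) and 0 lower, with a median of 0.27 (0.20 without S1Pless heart 5). It was Plat, which encodes tissue plasminogen activator, at 20.9 to 25.6 CPM in controls and 25.9 to 32.5 CPM in S1Pless hearts (0.36 ± 0.09, adjusted p = 0.0364). The calls for P3h3 and Plat held in 2 and 3 of the 10 fits that left out 1 heart and ended with the term for the title series (adjusted p = 0.0592 each). Without S1Pless heart 5 their log2 fold changes were 0.30 and 0.32 (adjusted p = 0.108 and 0.105). Spp1, the osteopontin gene, chosen after its values were seen, was at 7.16 CPM in S1Pless heart 5 and 0.0532 to 0.950 CPM in the other 9 hearts.

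In 3 cases a control and an S1Pless heart carry title numbers that differ by no more than 5, though the labels do not say what the number means. Of the 37 matrix genes 33 were higher in the S1Pless heart of the first such pair (control 1 and S1Pless heart 2), 28 in the second (control 2 and S1Pless heart 3) and 22 in the third (control 5 and S1Pless heart 4). The median log2 ratios were 0.36, 0.30 and 0.09, and 51.5%, 50.3% and 50.8% of all genes were higher in these S1Pless hearts. With such neighbours as a block, which leaves these 3 pairs to set the comparison, none of the 37 passed and their median was 0.18. Of all 12992 genes tested only 7 were higher and 1 lower in that fit, with a median of 0.00. A missing call there therefore says little about a single gene. Tnxb and Ccn5 did not pass in that fit either, with log2 fold changes of 0.59 and 1.07 that were no smaller than with all hearts (adjusted p = 0.0708 and 0.0509), and that of Meox1 was 0.54 (adjusted p = 0.121). Of the macrophage markers named above, Ccr2 kept its call (0.95, adjusted p = 0.0383), and Aif1 and Csf1r did not pass (1.07 and 0.68, adjusted p = 0.223 and 0.0509). Dpep1, Wt1, Erg, P3h3 and Plat did not pass with the block (adjusted p = 0.164, 0.196, 0.206, 0.215 and 0.437). S1Pless heart 5 has no neighbour and adds nothing to that fit.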

How the data were processed

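Per the labels' protocols, TRIzol and RNeasy kits were used for the RNA and an Illumina stranded mRNA kit for the libraries. The authors deposited 1 table of raw read counts per Ensembl gene for the 10 hearts, with no column left unused. Per the submitters' processing notes the tools were STAR 2.7.8a and featureCounts 2.0.1, and the build GRCm39. The sources used here do not give the annotation release, the strand setting or the handling of multiply mapped reads.

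Identifiers were matched to symbols with GENCODE M21 (20 of 15341 had none). That annotation and the RefSeq promoter table are on an older genome build, and were used for names, exon lengths, overlaps and promoter windows only. Replicates were numbered in accession order, and libraries of 1 group differed beyond sampling noise in all 20 pairs (lowest chi-square 10.4 per degree of freedom). Counts were tested with edgeR 4.0.16 in R 4.3.3: filterByExpr (minimum count 10), TMM scaling, robust quasi-likelihood fit and two-sided test, with Benjamini-Hochberg adjustment over all 12992 genes tested and a threshold of 0.05. The SE was derived from F and the log2 fold change, and CPM is scaled by the TMM factors, with no pseudocount. The 5 hearts a group and the depth set the precision. The fit was tested on simulated data. Alternatives were RLE factors, library totals, DESeq2 1.42.0, limma-voom (limma 3.58.1) with quality weights, other filters, covariates from the title numbers and leaving out each heart.

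The members and lists were chosen with earlier results of these data known. All 38 members are named, with the called genes of each pathway list (up to 4, or the 2 smallest p-values where none was called) and of each marker list (up to 3), and genes beside these are named to describe a list or a library. Some genes are on 2 lists: Dcn and Dpt are fibroblast markers and matrix genes, Acta2 is a smooth muscle marker and a TGF-beta response gene, and Acan and Hapln1 are valve markers and matrix genes.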

Additional observations from a re-analysis of the deposited data

Results flagged for a closer look

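In each group of 5 hearts, the highest and lowest value of 51 named genes were compared with the rest of the group. A heart counts as apart where its gap to its neighbour takes a share of the group's range above Dixon's critical value for 5 values, which chance gives in about 1 of 20 groups. Of 102 groups 26 had such a heart, and in 21 of these it was S1Pless heart 5. The rate of 1 in 20 is no yardstick for these counts. S1Pless heart 5 had been singled out beforehand, and the genes were chosen with results known and are not independent.

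S1Pless heart 5 stood above the other 4 S1Pless hearts in collagen genes, with Col3a1 at 485 CPM, Col5a2 at 73.5 CPM, Col6a1 at 135 CPM, Col6a2 at 128 CPM and Col8a1 at 53.7 CPM. The same held for the crosslinking enzymes Lox at 22.5 CPM and Loxl2 at 25.2 CPM. Among fibronectin and matricellular genes it was Fn1 at 162 CPM, Postn at 116 CPM, Cthrc1 at 0.853 CPM, Comp at 6.21 CPM and Tnc at 16.3 CPM. It was also apart in Vcan at 25.9 CPM, Mmp2 at 99.2 CPM, Timp1 at 14.6 CPM, Tgfb2 at 14.1 CPM and Tgfb3 at 24.3 CPM. Beside the matrix genes it was apart in P3h3 at 21 CPM, Ccn5 at 30.6 CPM, Tgfbr2 at 115 CPM and Csf1r at 127 CPM.

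Among the controls, control 5 was apart in Col5a2 at 39.9 CPM and in Postn at 81.1 CPM, where the other 4 had 30.1 to 31.0 CPM and 36.2 to 38 CPM. Control 4 was apart in Fmod at 3.00 CPM, control 1 in Timp3 at 438 CPM, and control 2 was the lowest in Aif1, at 1.18 CPM. What set these hearts apart was not tested.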

How the results depend on the processing

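With all hearts and edgeR's test, 3 matrix genes were higher and 442 of all genes higher and 41 lower. DESeq2 called 11 matrix genes and 764 and 264 of all genes, and library totals alone called 13 and 1420 and 13. Limma-voom called 5 and 529 and 60, and the block for neighbouring title numbers called 0 and 7 and 1. Leaving out 1 heart gave 0 to 4 matrix genes, 118 to 504 genes higher and 8 to 85 lower, and no matrix gene was called lower in any fit (0). The median log2 fold change of the matrix genes was 0.19 to 0.42 in these fits and 0.49 with library totals. The block was the only paired fit, and the title numbers behind it have no stated meaning, since the labels link no control to an S1Pless heart. The covariate for the title number's series called 2 matrix genes. Log2 fold changes that turned sign were all near 0 beside their errors or rested on 1 heart. With library totals these were Fbln1 (0.07), Comp (0.10), Thbs1 (0.02) and Thbs4 (0.06), with limma-voom Fmod (-0.09), and with a covariate for the title number's series Fmod (-0.01). With the block they were Eln (-0.05), Ltbp2 (-0.12), Fbln1 (0.03), Postn (-0.02), Comp (0.10), Lum (0.00) and Vcan (-0.07). Over the fits that left out 1 heart, the values ran from -0.13 to 0.91 for Fmod, -0.13 to 0.05 for Fbln1, -0.03 to 0.12 for Lum, -0.08 to 0.09 for Eln, -0.23 to 0.45 for Comp, -0.52 to 0.46 for Thbs1, -0.24 to 0.02 for Thbs4 and -0.02 to 0.11 for Tgfb3. The cause was not tested. Depth limits Cthrc1, Fmod, Tnc and Timp1, whose counts began at 0, 7, 20 and 19 in a library.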
